A study of Mus musculus with 12 samples.

Results

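The genes examined here were the 4 Notch receptors (Notch1, Notch2, Notch3 and Notch4), the Jagged ligands Jag1 and Jag2, and the 4 Notch target genes Hes1, Hey1, Hey2 and Heyl, in aortas before and after BAPN + AngII challenge. They were found by gene name in the scanner files. All 10 had a probe bright enough to be tested, out of 22755 genes tested in all. RNA from whole aortas was measured on 12 single-colour arrays, 3 from each of 4 groups of male mice. WT mice were Socs3 fl/fl littermates without the SM22-Cre transgene, examined before challenge (Pre) or on day 3 of challenge. smSocs3-KO mice carried the same floxed alleles together with SM22-Cre, which the smooth muscle SM22 promoter drives, and were examined at the same stages. All 4 groups thus shared the floxed Socs3 alleles, a mixed strain background (129S5/SvEvBrd, C57BL6 and SJL, with 3 generations of backcrossing) and the male sex. Their ages were not in the labels, and the study's methods give young adult mice for all experiments. Challenge combined BAPN (150 mg/kg/day), which blocks the crosslinking of collagen and elastin, with AngII (1000 ng/kg/min), both from osmotic minipumps.

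Notch receptors are single-pass membrane proteins that are activated by ligands on a neighbouring cell. Ligand binding leads to cleavage by an ADAM protease and then by gamma-secretase, after which the intracellular part of the receptor enters the nucleus, joins the DNA-binding protein Rbpj and switches on genes of the Hes and Hey families. In arteries, Notch3 is known as a receptor of smooth muscle cells and Notch4 as a receptor of endothelial cells, while Jag1 is made by both cell types and is needed for smooth muscle differentiation.

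The arrays were checked before the members were compared. All 8 smooth muscle markers, among them Myh11, Acta2 and Tagln, and all 10 endothelial markers were well above background on 12 of 12 arrays, which matches the labelled tissue. Between 55.4% and 61.2% of the spots of an array were well above background, no spot was saturated, and the correlation between arrays of the same group ran from 0.964 to 0.992 across genes. Socs3, the targeted gene, had a log2 signal that was not lower under the smSocs3-KO label, 0.49 higher before challenge (SE 0.53, limma adjusted p = 0.99989) and 1.5 higher at day 3 (SE 0.53, limma adjusted p = 0.199). SM22-Cre is meant to delete Socs3 in smooth muscle, and the RNA came from whole tissue. The signal does not show the deletion, and why it was not lower was not tested. The arrays are therefore called here the arrays labelled smSocs3-KO, and every direction between genotypes refers to these labels. Slide 1 held the 6 WT arrays together with replicate 1 of the smSocs3-KO group before challenge, and slide 2 held the remaining 5, so genotype and slide went largely together. WT day 3 replicate 4 stood apart, with a log2 summed signal of the 7 measured proliferation markers of 3.09, against 5.94 and 5.96 on the other WT day 3 arrays and 0.69 to 1.21 before challenge. Whether arrays of a group came from separate mice is not in the labels, and the p-values measure only the spread between these arrays. With 3 arrays against 3, an exact two-sided permutation test of a single gene cannot give a p below 0.1, so the adjusted p-values come from limma, which pools information on the spread over all genes.

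The 10 members were covered by 12 probes, each a 60-base oligonucleotide, with 2 probes each for Notch1 and Notch2. The following are the first 30 bases of the probes behind the differences described below, 5′ to 3′ and in lower case. The 2 Notch2 probes are both shown because they are assigned to the same transcript and can be set side by side. Their starts lie 2681 bases apart on the genome, and their distance along the transcript was not determined.
Notch2, kept probe: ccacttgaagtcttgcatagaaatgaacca
Notch2, dimmer probe: tcttcaccacactctgcatctgactggtca
Notch3: gcctaatagaaatgtttttaggctgttttt
Notch4: gttgatttcgagaatccctaaactctggaa
Jag1: ggagtattctcataagctagttgaatactt
Hes1: ttaaaatatcttcctttggggaagtttatt
On the mm9 build, the 2 Notch2 probes lie on the plus strand at chr3:97953914-97953973 and chr3:97951233-97951292. The Notch3 probe is on the minus strand at chr17:32257848-32257907 and the Notch4 probe on the plus strand at chr17:34725120-34725179. The Jag1 probe is on the minus strand at chr2:136907433-136907492 and the Hes1 probe on the plus strand at chr16:30067820-30067879. Gene, exon and untranslated region annotations on mm9 were not used here. The second Notch1 probe was not well above background on any array and was left out. The Jag2 probe missed that mark on 1 array, WT day 3 replicate 3, and the other 10 probes were well above background on 12 of 12 arrays.

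Values below are log2 signals relative to the 75th percentile of the same array, so a value of 0 is a probe as bright as that percentile. Probes differ in how well they bind, and the level of one gene is not set against that of another. In no comparison did a member pass the adjusted threshold of 0.05 with limma. The largest differences from before challenge to day 3 were a lower Notch3 and a higher Notch4.

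**Figure D1:**
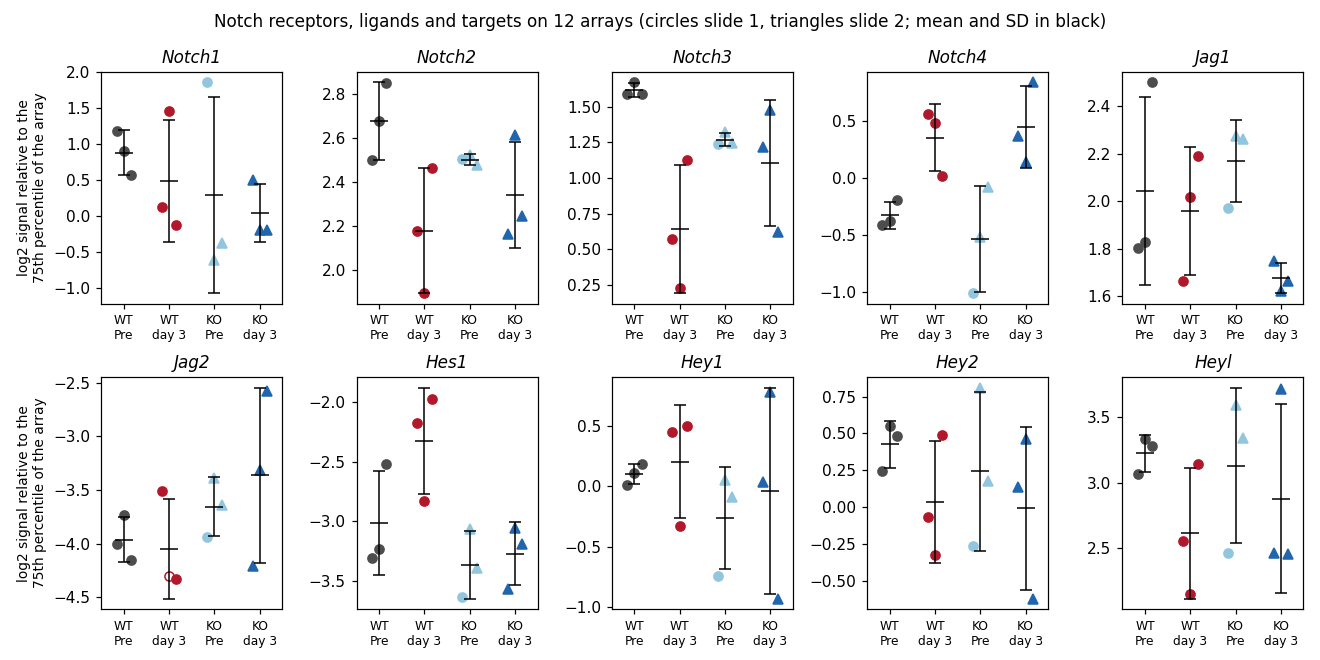
Log2 signal of each of the 10 members on each of the 12 arrays, relative to the 75th percentile of the array, by group (KO stands for the smSocs3-KO label, Pre for before challenge). Points are arrays, circles on slide 1 and triangles on slide 2, black lines give the mean and SD of 3 arrays, and the open circle for Jag2 is an array on which the probe was not well above background. All 3 WT day 3 values of Notch3 (0.23 to 1.12) lie below the 3 WT values before challenge (1.59 to 1.67), and those of Notch4 (0.02 to 0.56) lie above (-0.41 to -0.19).

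Among the receptors, Notch3 had the lowest limma p in WT. In WT before challenge its log2 signal was 1.59 in replicate 1, 1.67 in replicate 2 and 1.59 in replicate 3, and at day 3 it was 0.57 in replicate 1, 0.23 in replicate 3 and 1.12 in replicate 4. The groups did not overlap. They were 0.46 apart at their nearest values. The 3 arrays before challenge lay within 0.08 of each other, while those at day 3 spread over 0.89. The mean difference was -0.97, which is 0.51 times the level before challenge (SE 0.25, limma 95% interval -1.53 to -0.42, adjusted p = 0.0535). On the arrays labelled smSocs3-KO, Notch3 was 1.24, 1.32 and 1.24 before challenge in replicates 1, 3 and 4, and 1.21, 1.48 and 0.62 at day 3 in replicates 2, 3 and 5. These groups overlapped, and the difference of -0.16 (SE 0.25, limma adjusted p = 0.694) was smaller than its error. The interaction, that is the response under the smSocs3-KO label minus the WT response, was 0.81 for Notch3 (SE 0.36, limma unadjusted p = 0.0453, adjusted p = 0.888). It did not pass after adjustment over all genes. By mean, the order of the groups was WT before challenge, smSocs3-KO before challenge, smSocs3-KO at day 3 and WT at day 3. Of the neighbours in this order, the 2 groups before challenge did not overlap, with 0.26 between the lowest WT array and the highest array labelled smSocs3-KO, and the other neighbours overlapped.

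The call for Notch3 in WT depended on the settings and on single arrays. It passed the adjusted threshold in 9 of 23 alternatives, with an adjusted p between 0.0093 and 0.202 and a difference that stayed between -1.21 and -0.77. These alternatives are not all distinct. Quantile normalization and the deposited table gave nearly the same limma adjusted p (0.0481 and 0.0485). The slide as a block gave the same WT result as leaving out replicate 1 before challenge under the smSocs3-KO label. Without WT day 3 replicate 4 the difference was -1.21 (limma adjusted p = 0.0093). Without replicate 1 before challenge or replicate 5 at day 3 under the smSocs3-KO label, which do not enter the WT means but do enter the pooled spread, the adjusted p was 0.0451 and 0.0456. Without WT day 3 replicate 1 it was 0.202. The log2 summed signal of the smooth muscle markers was 11.22 to 11.38 in WT before challenge and 10.84 to 11.20 in WT at day 3, and under the smSocs3-KO label it was 11.04 to 11.65 and 10.54 to 10.79. This sum was thus lower at day 3 under both labels. Of the 8 markers, 2 in WT and 7 under the smSocs3-KO label were lower at day 3 without overlap. Over all genes, 35.3% and 29% were without overlap in these responses, counting both directions. Limma called 0 of the 8 in either response, and their median difference was -0.30 in WT and -0.61 under the smSocs3-KO label. Myh11, the smooth muscle myosin heavy chain, differed by -1.02 in WT (SE 0.33, limma adjusted p = 0.0914) and by -1.22 under the smSocs3-KO label (SE 0.33, limma adjusted p = 0.0746). The part of these markers in the Notch3 values was not tested, and in whole tissue fewer cells of a type and less RNA per cell cannot be told apart.

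Notch2, a receptor that smooth muscle cells also carry, was 2.50, 2.68 and 2.85 in WT before challenge and 2.18, 1.89 and 2.46 at day 3. The groups did not overlap, but the gap between them was only 0.03. The difference was -0.50 (SE 0.19, limma adjusted p = 0.125), and without WT day 3 replicate 4 it was -0.64 (limma adjusted p = 0.0457). The second Notch2 probe, which was dimmer but well above background on 12 of 12 arrays, was -2.47, -2.53 and -3.16 before challenge and -3.30, -3.59 and -3.65 at day 3 in WT. It was thus lower on all 3 day 3 arrays as well, with a difference of -0.79 (SE 0.36, limma adjusted p = 0.191 in the fit over all probes). On the arrays labelled smSocs3-KO the kept probe was 2.50, 2.52 and 2.47 before challenge and 2.16, 2.61 and 2.24 at day 3. The difference there was -0.16 (SE 0.19, limma adjusted p = 0.597), with day 3 values on either side of those before challenge. The dimmer probe differed by -0.49 under that label (SE 0.36, limma adjusted p = 0.411 in the fit over all probes), with overlap.

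Notch4 was the member with the largest difference under the smSocs3-KO label, and it was higher at day 3 in both genotypes. In WT it was -0.41, -0.37 and -0.19 before challenge and 0.56, 0.48 and 0.02 at day 3, without overlap. The difference was 0.68, or 1.60-fold (SE 0.26, limma 95% interval 0.10 to 1.25, adjusted p = 0.133). Under the smSocs3-KO label it was -1.01, -0.52 and -0.08 before challenge and 0.37, 0.14 and 0.83 at day 3, again without overlap. The difference was 0.98, or 1.97-fold (SE 0.26, limma 95% interval 0.40 to 1.56, adjusted p = 0.0715). Within slide 2 alone, with 3 arrays at day 3 and 2 before challenge, it was 0.74. Without WT day 3 replicate 4, whose omission changes only the pooled spread of this comparison, the limma adjusted p under the smSocs3-KO label was 0.0410. The 2 responses differed by 0.30 (SE 0.37, limma adjusted p = 0.976). Both day 3 groups thus stood above both groups before challenge, and within each of these 2 sets the groups overlapped.

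Endothelial markers were read beside Notch4. Their log2 summed signal was 6.13 to 6.15 in WT before challenge and 6.30 to 6.56 in WT at day 3, without overlap. Under the smSocs3-KO label it was 5.95 to 6.50 before challenge and 6.22 to 6.43 at day 3, with overlap. Of the 10 markers, 3 were higher and 1 was lower at day 3 in WT without overlap, against 1 and 1 under the smSocs3-KO label, and limma called 0 in either response. Over all genes, 35.3% in WT and 29% under the smSocs3-KO label were without overlap. Kdr, an endothelial receptor for Vegf, differed by 0.26 in WT (SE 0.30, limma adjusted p = 0.60006) and by -0.45 under the smSocs3-KO label (SE 0.30, limma adjusted p = 0.370). Cdh5, the cadherin of endothelial junctions, differed by 0.27 in WT (SE 0.23, limma adjusted p = 0.489) and by 0.27 under the smSocs3-KO label (SE 0.23, limma adjusted p = 0.477). Their part in the Notch4 values was not tested.

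Notch1, which is active in endothelial cells and many other cell types, had the largest error of the 4 receptors. It was 1.18, 0.90 and 0.56 in WT before challenge, 0.13, 1.46 and -0.12 in WT at day 3, 1.86, -0.61 and -0.38 under the smSocs3-KO label before challenge and 0.50, -0.19 and -0.19 at day 3. Groups overlapped in all comparisons of Notch1 made here. Its WT response was -0.39 (SE 0.60, limma adjusted p = 0.700), and its response under the smSocs3-KO label was -0.25 (SE 0.60, limma adjusted p = 0.807). The values also went with the slide. On the 7 arrays of slide 1 the median was 0.90 (-0.12 to 1.86) and on the 5 arrays of slide 2 it was -0.19 (-0.61 to 0.50). Among the arrays labelled smSocs3-KO before challenge, the only group on both slides, the mean of the 2 arrays on slide 2 minus the array on slide 1 was -2.35. In the fit with slides as blocks, the slide difference is taken from this group alone and so hangs on its 1 array on slide 1. The genotype difference of Notch1 there turned from -0.59 to 0.98 before challenge and from -0.45 to 1.91 at day 3. The slide and the genotype cannot be told apart for Notch1 at day 3.

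Of the ligands, Jag1 with the smSocs3-KO label was 1.97, 2.28 and 2.26 before challenge and 1.75, 1.62 and 1.66 at day 3. The groups did not overlap, and the 3 day 3 arrays lay within 0.13 of each other. The difference was -0.49 (SE 0.22, limma 95% interval -0.97 to -0.02, adjusted p = 0.192), and it was -0.59 within slide 2. In WT, Jag1 was 1.80, 1.83 and 2.50 before challenge and 1.66, 2.02 and 2.19 at day 3, a difference of -0.09 (SE 0.22, limma adjusted p = 0.822) with overlap. The interaction of -0.41 (SE 0.30, limma adjusted p = 0.940) did not pass, so the 2 responses were not shown to differ. By mean, Jag1 ran from smSocs3-KO before challenge over WT before challenge and WT at day 3 to smSocs3-KO at day 3, and the neighbours in this order overlapped.

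Jag2, the other Jagged ligand, was -4.00, -3.74 and -4.15 in WT before challenge and -3.51, -4.30 and -4.33 at day 3, and -3.94, -3.39 and -3.64 and then -4.21, -3.31 and -2.57 under the smSocs3-KO label. The groups overlapped in all comparisons. The largest difference was at day 3, 0.68 higher under the smSocs3-KO label (SE 0.37, limma adjusted p = 0.381), and rested most on replicate 5.

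Among the target genes, Hes1, a repressor that Notch switches on within hours, was -3.31, -3.23 and -2.51 in WT before challenge and -2.17, -2.83 and -1.97 in WT at day 3. These overlapped, since replicate 3 before challenge (-2.51) lay above replicate 3 at day 3 (-2.83), and the difference was 0.69, or 1.62-fold (SE 0.28, limma adjusted p = 0.153). With normexp background correction the difference was 0.25 (limma adjusted p = 0.436). Under the smSocs3-KO label it was -3.63, -3.07 and -3.39 before challenge and -3.57, -3.06 and -3.19 at day 3, a difference of 0.09 (SE 0.28, limma adjusted p = 0.854). At day 3 all 3 arrays labelled smSocs3-KO were thus below all 3 WT arrays, with a mean difference of -0.95, or 0.52 times the WT level (SE 0.28, limma 95% interval -1.58 to -0.32, adjusted p = 0.145). With the slide as a block this difference was -1.35, where the slide difference is taken from smSocs3-KO before challenge alone, 2 arrays against 1. Over 23 alternatives the day 3 difference ran from -1.35 to -0.62 and was called in 0 of them. The interaction was -0.60 (SE 0.40, limma adjusted p = 0.933). By mean, Hes1 was highest in WT at day 3, followed by WT before challenge, smSocs3-KO at day 3 and smSocs3-KO before challenge, and the neighbours in this order overlapped.

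Hey1, Hey2 and Heyl are the Hey repressors, of which Hey2 and Heyl are known as targets of Notch in smooth muscle cells. Before challenge in WT, Hey1 was 0.01, 0.11 and 0.18, Hey2 was 0.24, 0.55 and 0.48 and Heyl was 3.07, 3.33 and 3.28. At day 3 in WT, Hey1 was 0.45, -0.33 and 0.49, Hey2 was -0.06, -0.32 and 0.49 and Heyl was 2.55, 2.15 and 3.14. The WT responses were 0.10 for Hey1 (SE 0.39), -0.39 for Hey2 (SE 0.33) and -0.61 for Heyl (SE 0.40), with limma adjusted p of 0.885, 0.473 and 0.342. Each of these genes overlapped between the groups. The WT arrays before challenge lay close together for all 3 genes and those at day 3 did not.

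Under the smSocs3-KO label before challenge, Hey1 was -0.74, 0.05 and -0.09, Hey2 was -0.26, 0.81 and 0.18 and Heyl was 2.46, 3.60 and 3.34. At day 3 they were 0.03, 0.77 and -0.93 for Hey1, 0.14, 0.46 and -0.62 for Hey2 and 2.46, 3.72 and 2.46 for Heyl. The responses were 0.22 (SE 0.39), -0.25 (SE 0.33) and -0.25 (SE 0.40), all smaller than their errors, with limma adjusted p of 0.737, 0.649 and 0.699. The limma 95% intervals of these responses, -0.65 to 1.09 for Hey1, -0.99 to 0.49 for Hey2 and -1.13 to 0.62 for Heyl, all include 0. No direction can be given for the Hey genes from these arrays.

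The Hey genes varied together within the groups. The array lowest for all 3 of them was the same one in each of the 4 groups, replicate 1 in WT before challenge, replicate 3 in WT at day 3, and replicates 1 and 5 under the smSocs3-KO label before challenge and at day 3. For Heyl at day 3 under that label, replicates 2 and 5 were nearly level, both at 2.46. After the group means were removed, the Pearson correlation over the 12 arrays was 0.88 between Hey1 and Hey2, 0.85 between Hey2 and Heyl and 0.85 between Hey1 and Heyl. Notch3 had values of 0.83 with Hey1, 0.81 with Hey2 and 0.71 with Heyl, and Notch2 had 0.75 with Heyl. Notch1 ran the other way, with -0.75 to Heyl, -0.60 to Hey2 and -0.54 to Hey1. On the same arrays its value was the highest of its group in 3 of 4 groups. Over all 45 pairs of members the median was 0.15. These values describe 12 arrays that share slides and groups, and no p was attached to them. The log2 summed signal of the 5 fat cell markers was the highest of its group on those same arrays in 4 of 4 groups, 5.26, 6.50, 5.30 and 7.08, which was seen after the values were known. For the other 7 marker lists this held in 1 or 2 of 4 groups. The part of fat tissue in the Hey and Notch1 values was not tested.

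**Figure D2:**
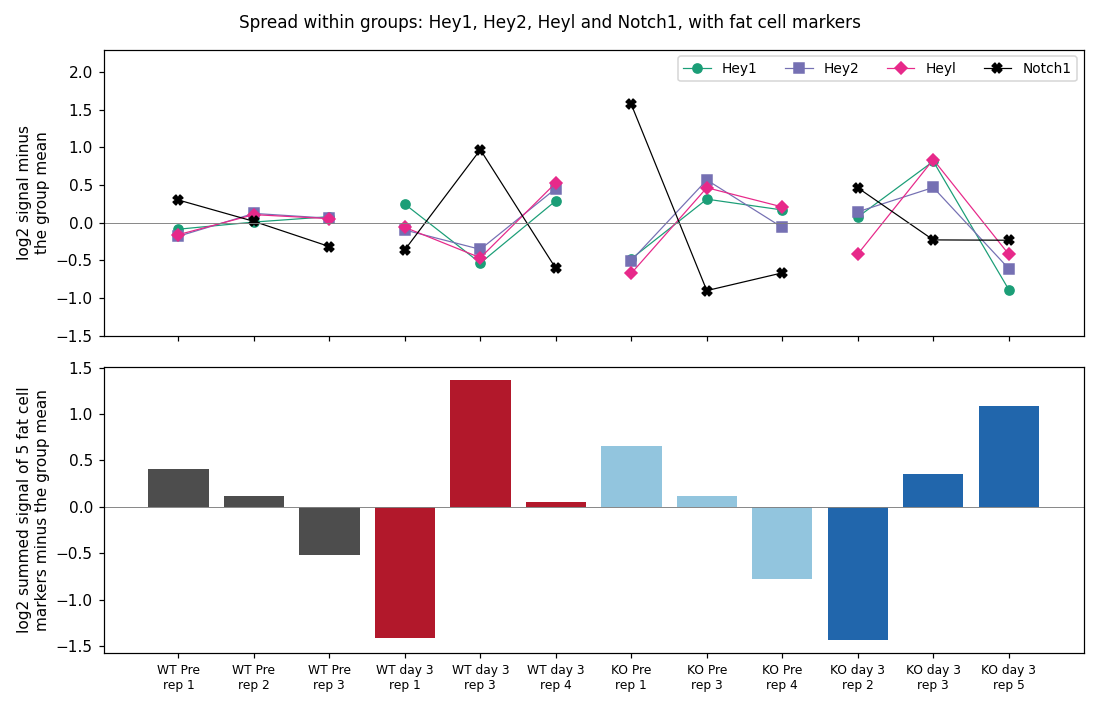
Top, log2 signal of Hey1, Hey2, Heyl and Notch1 on each of the 12 arrays minus the mean of its group, joined within a group. Bottom, log2 summed signal of the 5 fat cell markers minus the group mean (KO stands for the smSocs3-KO label, Pre for before challenge). The 3 Hey genes are lowest on the array with the highest fat cell sum in each of the 4 groups, and Notch1 is highest on that array in 3 of them.

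Promoters of the members were read from RefSeq for the GRCm38.p6 build, as windows of 300 bases, 250 before and 50 after the start of the gene. Such a window was at hand for 7 of the 10 members, and not for Hes1, Hey1 and Heyl. The core motif of Rbpj, GTGGGAA, was searched on both strands. It occurs in 6.38% of 32851 such windows in the mouse. Of the 7 members, only Hey2 holds it, with a match on each strand, and of 38 other Notch pathway genes with a window 7 hold it. The Hey2 stretch on the minus strand at chr10:30842781-30843033, and that of Lfng, the called pathway gene described below, on the plus strand at chr5:140607091-140607340, are printed with the motif in capitals, so that its place relative to the start site can be seen. In Hey2 the matches begin at bases 44, read on the other strand, and 247, and in Lfng at base 142, counted from the first base printed. The gene starts after base 250, so the second Hey2 match runs across the start site.
Hey2: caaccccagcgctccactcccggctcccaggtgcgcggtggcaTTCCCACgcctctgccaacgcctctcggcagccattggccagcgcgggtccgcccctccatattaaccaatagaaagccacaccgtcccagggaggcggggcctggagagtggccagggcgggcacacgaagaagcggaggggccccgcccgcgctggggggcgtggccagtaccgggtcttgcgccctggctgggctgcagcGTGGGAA
Lfng: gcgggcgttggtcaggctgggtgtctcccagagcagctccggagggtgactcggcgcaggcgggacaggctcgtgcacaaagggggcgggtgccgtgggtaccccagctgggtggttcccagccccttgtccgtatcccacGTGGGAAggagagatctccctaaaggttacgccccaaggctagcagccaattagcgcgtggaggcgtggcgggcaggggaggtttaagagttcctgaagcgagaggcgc
A match is a description of the sequence, and binding was not measured here.

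The 5 comparisons were then read over all 10 members. In the WT response, limma called 0 of 10 members at an adjusted p under 0.05, against 4.67% of all genes tested, and 0 passed the study's threshold of p under 0.01 with a fold above 4 or below 0.25, against 1.25%. At an unadjusted p under 0.05 there were 4 members (Notch2, Notch3, Notch4 and Hes1), against 26.6% of all genes. The groups did not overlap for 3 members, 1 higher and 2 lower at day 3, against 35.3% of all genes. The median difference of the members was -0.24 and that of all genes was -0.04. Neither the count of calls nor that of groups without overlap stood above the share of all genes. Proliferation markers were higher at day 3 without overlap for 7 of 7 measured genes, all called by limma, and macrophage markers for 5 of 6, none called, with a log2 summed signal of 4.83 to 4.92 before challenge and 5.01 to 6.18 at day 3. Of the 4 measured lymphocyte markers, 3 were lower at day 3 without overlap and 1 of them was called. Their part in the member values was not tested.

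The response of the arrays labelled smSocs3-KO gave 0 of 10 members at the adjusted threshold, against 2.41%, and 0 at the study's threshold, against 1.56%. At an unadjusted p under 0.05 there were 2, Notch4 and Jag1, against 24.3% of all genes by limma. These same genes were the members without overlap, 2 of 10 against 29%. The median of the members was -0.16 and of all genes -0.11. Here 7 of 7 proliferation markers (1 called) and 5 of 6 macrophage markers (2 called) were higher at day 3 without overlap, and their part was not tested either. Notch4 was thus the member with no overlap in both responses. Over all genes, 35.3% were without overlap in WT and 29% under the smSocs3-KO label. The share of all genes without overlap in both was not counted, so this does not set Notch4 apart. The comparisons share no arrays, although the spread was pooled.

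Before challenge, the genotype difference gave 0 of 10 members at the adjusted threshold, against 0.0308% of all genes, and 0 at the study's threshold, against 0.237%. With limma, 0 members had an unadjusted p under 0.05, against 4.37% of genes. Only Notch3 was without overlap, with a difference of -0.35 (SE 0.25, limma adjusted p = 0.99989), 1 of 10 against 11.1%. Within slide 1, where a single array was labelled smSocs3-KO, the difference from the WT mean was -0.38, which rests on 1 array against 3. Members ranged from -0.59 for Notch1 to 0.31 for Jag2, and 8 of 10 were on the lower side, with a median of -0.20 against -0.00 for all genes. With the slide as a block the median was -0.50, which rests on that same 1 array of slide 1 against 3.

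At day 3, the genotype difference gave 0 of 10 members at the adjusted threshold, against 1.09%, and 0 at the study's threshold, against 1.09%. At an unadjusted p under 0.05 limma gave 1 member, Hes1, against 16.6% of genes. Hes1 was also the only member without overlap, 1 of 10 against 21.5%. Of the members, 5 were higher and 5 lower, with a median of 0.03 against -0.11 for all genes. With the slide as a block the median was -0.60, and Notch1, Notch4 and Heyl changed sign, to 1.91, -0.62 and -0.74. No slide held both groups at day 3, so this shift is the slide difference within smSocs3-KO before challenge, 2 arrays on slide 2 against 1 on slide 1. Mesothelial markers had a log2 summed signal of 1.41 to 4.44 in WT and of 4.75 to 5.92 under the smSocs3-KO label. They were higher under that label without overlap for 5 of 6 genes before challenge and 6 of 6 at day 3, with 0 called by limma. Over all genes, 11.1% and 21.5% were without overlap in these comparisons. Fibroblast markers were higher under that label at day 3 without overlap for 4 of 6 genes (1 called by limma), with a log2 summed signal of 9.51 to 9.997 against 9.22 to 9.49 in WT. The part of both lists in the genotype differences of the members was not tested. The interaction gave 0 of 10 members at the adjusted threshold, as for all genes (0%), and 0 at the study's threshold, against 0.303%. At an unadjusted p under 0.05 limma gave 1 member, Notch3, against 5.53% of genes, and 8 of 10 members had a value above 0, with a median of 0.22 against -0.07. With the slide as a block, Hey1 and Hey2 fell below 0, to -0.12 and -0.11. Notch1 changed sign in 7 of 22 alternatives.

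**Figure D3:**
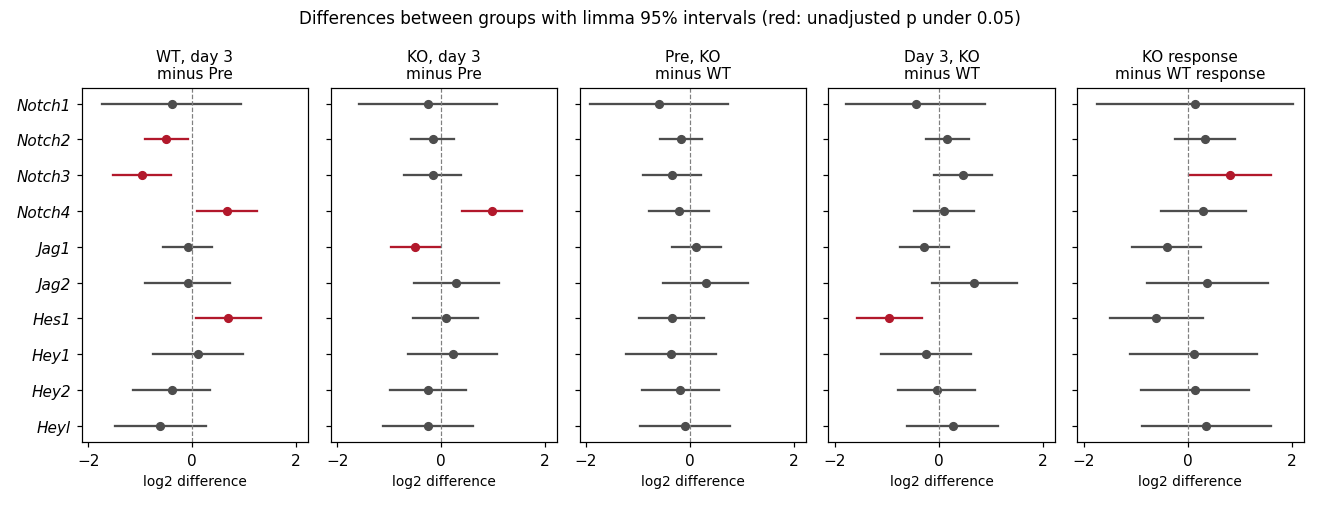
Log2 difference of each member in the 5 comparisons (KO stands for the smSocs3-KO label, Pre for before challenge), with the limma 95% interval as a line and red for an unadjusted p under 0.05. Notch4 lies above 0 in both responses, 0.68 and 0.98, Notch3 (-0.97) and Notch2 (-0.50) lie below 0 in WT, and Hes1 lies at -0.95 between genotypes at day 3. No adjusted p of a member was under 0.05.

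Genes whose pattern over the 12 arrays was most like that of a member were looked up for the receptor, the ligand and the target with the largest moderated F over the groups. For Notch4 these were Nt5m, Slc25a20 and Zdhhc24, with a Pearson r of 0.957, 0.957 and 0.955. For Jag1 they were St3gal5, Gm10046 and Cep135, with r of 0.870, 0.854 and 0.854, and for Hes1 they were Arfip1, Skil and Birc6, with r of 0.946, 0.936 and 0.919. The best match of Jag1 was thus weaker than those of Notch4 and Hes1. These are the highest of all tested genes other than members, over 12 arrays that share slides, and no p was attached to them.

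The rest of the pathway was read from a list of 46 further genes, of which 44 were measured and Aph1c and Hes5 were not. Limma called 0 of 44 in the WT response, against 4.67% of all genes, and 9 had an unadjusted p under 0.05 (3 higher and 6 lower), against 26.6%. For the smSocs3-KO response it called 1 of 44, against 2.41%, and 12 had an unadjusted p under 0.05 (4 higher and 8 lower), against 24.3%. Between genotypes 0 were called before challenge (0 unadjusted, against 4.37% of all genes by limma) and 0 at day 3, against 1.09%, with 7 unadjusted (4 higher and 3 lower), against 16.6%. For the interaction 0 were called and 3 had an unadjusted p under 0.05 with limma, against 5.53%. Without overlap were 10 of 44 in the WT response, against 35.3% of all genes, and 10 of 44 in the smSocs3-KO response, against 29%. Between genotypes these were 4 of 44 before challenge, against 11.1%, and 7 of 44 at day 3, against 21.5%. The medians in the 2 responses were -0.08 in WT and -0.18 under the smSocs3-KO label.

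The called gene was Lfng, a glycosyltransferase that extends sugars on Notch receptors and alters their response to ligands. Under the smSocs3-KO label it was -4.18, -2.84 and -2.72 before challenge and -1.35, -1.93 and -1.55 at day 3. All day 3 arrays were above all arrays before challenge, by a mean of 1.64 (SE 0.36, limma adjusted p = 0.0449). The lowest value, replicate 1, is the array on slide 1, and the Lfng probe was not well above background on it, so that 2 of 3 arrays before challenge measured it. The call was lost in 15 of 22 alternatives (limma adjusted p 0.0231 to 0.623), among them the slide as a block, with a difference of 1.17 (limma adjusted p = 0.0951). With normexp background correction the difference was 0.66 and still passed (limma adjusted p = 0.0433). Lfng was not among the genes tested when probes well above background on all arrays only were kept. In WT, Lfng was -3.44, -3.16 and -3.66 before challenge and -2.59, -2.88 and -3.33 at day 3, a difference of 0.49 (SE 0.36, limma adjusted p = 0.405) with overlap. The interaction was 1.15 (SE 0.51, limma adjusted p = 0.891), so the responses were not shown to differ. At day 3, Lfng was 1.32 higher under the smSocs3-KO label, without overlap (SE 0.36, limma adjusted p = 0.115).

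Of the other pathway genes with a probe well above background on every array compared, those with the largest differences had no adjusted p under 0.05 with limma. Among the ligands, Dll1 differed by -0.91 in WT and -1.09 under the smSocs3-KO label (limma adjusted p = 0.2496 and 0.194). Dlk1, a ligand-like protein that lacks the DSL domain, differed by -1.35 in WT (limma adjusted p = 0.212) and by -1.37 between genotypes before challenge (limma adjusted p = 0.99989). Both Dlk1 differences share the WT arrays before challenge, at -1.78, -0.80 and -3.19 in replicates 1, 2 and 3, and the groups overlapped in both. Dtx1, a ubiquitin ligase of the Deltex family that acts on Notch, was lower at day 3 in both genotypes without overlap, with differences of -0.93 in WT (SE 0.28, limma adjusted p = 0.0750) and -0.83 under the smSocs3-KO label (SE 0.28, limma adjusted p = 0.120). Adam17, a protease that can cleave Notch, was lower under the smSocs3-KO label at day 3 without overlap, with a difference of -0.99 (SE 0.22, limma adjusted p = 0.0640). Dtx4, another Deltex protein, was 0.72 higher there (limma adjusted p = 0.262). Rbpjl, a relative of Rbpj, differed by -0.81 in the response under the smSocs3-KO label (limma adjusted p = 0.315) and by 0.49 between genotypes before challenge (limma adjusted p = 0.99989). Both differences rest most on replicate 1 before challenge under that label, at -1.10 against -2.81 and -2.87 in replicates 3 and 4. Neurl1a, a ubiquitin ligase for Notch ligands, differed by 0.38 between genotypes before challenge (limma adjusted p = 0.99989). In the interaction, Dlk1 was at 1.73, Rbpjl at -0.86 and Adam17 at -0.84 (limma adjusted p = 0.928, 0.945 and 0.885). Nrarp, a Notch target that restrains Notch signalling, falls outside this choice, because its probe was not well above background on replicate 1 before challenge under the smSocs3-KO label, and it is named after its values were seen. Its difference was 1.31 in the response under that label (SE 0.57, limma unadjusted p = 0.0427, adjusted p = 0.191) and -0.75 between genotypes before challenge (SE 0.57, limma adjusted p = 0.99989), with overlap in both.

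**Figure D4:**
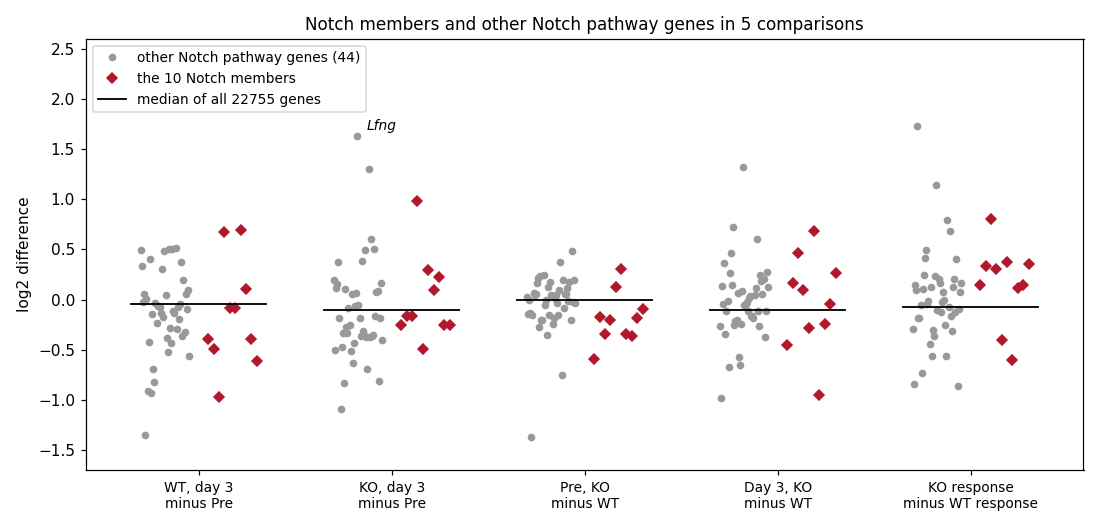
Log2 differences of the 10 members (red diamonds) and of 44 other Notch pathway genes (grey circles) in each of the 5 comparisons, beside the median of all genes tested (black line). KO stands for the smSocs3-KO label and Pre for before challenge. Lfng, at 1.64 in the response under the smSocs3-KO label, is the only gene shown with an adjusted p under 0.05.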

How the data were processed

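Expression in aortic RNA was measured on 12 single-colour microarrays, with groups and replicate numbers taken from the sample labels. The 10 members and all gene lists were chosen with earlier results of these data known. For each array the authors deposited scanner files, whose processed signal is a linear intensity of every spot, background-subtracted by Agilent Feature Extraction (10.7.1.1 per the file headers, 9.5.1.1 per the labels). A second deposited table holds values the authors processed from the same arrays, and its columns had the same median after log2 (4.92), as quantile normalized values have, with scale and direction otherwise as in the scanner files. From the intensities, log2 was taken, control spots and outlier spots were left out, the 75th percentile of the array was subtracted and spots of a probe were averaged. Probes well above background (13 times its SD) on every array of 1 or more groups remained, 32275 of 55681, and the brightest stood for its gene. The means of the 4 groups were fitted in limma 3.58.1 (R 4.3.3), with Benjamini-Hochberg adjustment over 22755 genes. Genes named were all members, Socs3, the pathway genes called or, among those with a probe well above background on every array compared, the 3 with the largest difference of a comparison, and the 3 nearest neighbours of the receptor, ligand and target with the largest F. The model was tested on simulated data. Alternatives covered scaling, background correction, the deposited table, the filter, the choice of probe, moderation, the arrays in the fit, slide, replicate number and each array left out, and 1 was added after the data were seen. The number of arrays limits the precision.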

Additional observations from a re-analysis of the deposited data

How the results depend on the processing

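The count of called members in the WT response was 0, and 1 (Notch3) with quantile normalization, the deposited table, probes well above background on all arrays only, an intensity trend with robust moderation, or the slide as a block. In these fits limma called 614 to 2295 genes in all. The member count was 3 (Notch2, Notch3 and Notch4) with the slide as a block and WT day 3 replicate 4 left out, an alternative chosen after seeing the data. There limma called 5000 of 22755 genes. With 1 array left out the member count ran from 0 to 2 in WT, and from 0 to 1 under the smSocs3-KO label, the higher count in each case without WT day 3 replicate 4. Without that array limma called 3667 genes in WT and 1948 under the smSocs3-KO label, so members were not called alone. With the slide as a block, genotype differences hang on replicate 1 before challenge under the smSocs3-KO label, the only array of that label on slide 1. The median of the members was then -0.50 before challenge between genotypes, with or without WT day 3 replicate 4. At day 3 it was -0.60 with the slide as a block, -0.47 with that array also left out, and -0.20 to 0.21 with 1 array left out, the lowest without replicate 3 and the highest without replicate 5 labelled smSocs3-KO. With the replicate block it was 0.12 in the smSocs3-KO response and 0.28 at day 3 between genotypes. The replicate block called 0 members in all 5 comparisons. Same-numbered arrays of different groups had deviations that correlated between -0.403 and 0.464, over 0.1 in 4 of 11 pairs, so the numbers were not taken as pairs.

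Of 50 differences of members, 4 passed the adjusted threshold in some alternative (Notch2, Notch3 and Notch4 in WT, Notch4 under the smSocs3-KO label), and 27 changed sign in at least 1, none of them a called value. Over all genes, limma called 1063 in WT (0 to 5000 over the alternatives), 548 under the smSocs3-KO label (1 to 1948), 7 before challenge between genotypes (0 to 14), 247 at day 3 (0 to 604) and 0 for the interaction (0 to 10). The cause was not tested. Probe brightness limits Jag2, Lfng and Nrarp, the WT difference of Hes1 moved with the background correction, and 3 arrays a group limit all members.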
